A study of Mus musculus with 8 samples.

Results

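The insulin-like growth factor (IGF) system was followed in mouse skin that lacks p63, through the ligands Igf1 and Igf2, the receptors Igf1r and Igf2r, and the binding proteins Igfbp2 to Igfbp7. The members were all probe sets, the groups of short probes that stand for a transcript on an Affymetrix array, whose platform annotation gave 1 of these 10 symbols and no other. This rule found 14 of 12488 probe sets on the A chip and 4 of 12477 on the B chip, covering 9 of the 10 genes. Igfbp5 had no probe set annotated to it alone and was not analysed here.

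The groups were whole skin of p63 null embryos and whole skin of wild-type embryos, all at stage E18.5 (E counts embryonic days; shortly before birth) and all from crosses of p63 heterozygous mice. Each genotype had 2 A chip arrays and 2 B chip arrays, 8 in all, and the chips carry different probe sets. The mutant allele, the strain and the sex of the embryos are not stated in the labels. Embryos are numbered 1 and 2 within a genotype, and the labels do not say whether a number is the same embryo on both chips.

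IGF1 and IGF2 are secreted hormones that drive growth before birth and act on most tissues through the receptor tyrosine kinase IGF1R, which signals through insulin receptor substrates to the PI3K-Akt and Ras-MAP kinase routes. IGF2R is a scavenger that takes IGF2 to lysosomes. The IGF binding proteins hold the ligands outside the cell, and either keep them from the receptor or carry and release them. In skin, fibroblasts of the dermis are known as a source of IGF1, and keratinocytes respond to it through IGF1R.

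Trp63, the gene of p63, had signals of 61.9 and 46.6 in null skin and 379.3 and 347.1 in wild-type skin, or -2.49 as log2 fold change, null minus wild type as throughout (adjusted p = 1.13e-05, limma). Where its probes lie relative to the mutation is not given. Correlations of log2 values over the tested probe sets were 0.980 (A chip) and 0.950 (B chip) between the null arrays, 0.984 and 0.966 between the wild-type arrays and 0.769 to 0.865 between genotypes, across probe sets that are not independent replicates. The 3'/5' signal ratio of beta-actin, a sign of RNA integrity and labelling, was 1.27 in both null arrays against 1.63 and 1.69 in wild type on the A chip, and 1.36 and 1.33 against 1.50 and 1.98 on the B chip. That of Gapdh was 1.25 and 1.45 in null against 1.47 and 2.46 in wild type on the A chip, with the B chip at 1.26 and 1.51 against 1.55 and 2.66. The part of this difference in the results below was not tested.

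Of the 16 tested IGF probe sets 9 were called higher in null skin, 0 were called lower and 7 did not pass. On the A chip 7 of 12 tested member probe sets were higher in null and 0 were lower at an adjusted p under 0.05, where 44.3% of all tested probe sets of that chip were called, 22.1% higher and 22.2% lower. For the B chip 2 of 4 were higher and 0 lower, where 29.4% of all were called, 14.5% higher and 14.9% lower. The 9 called probe sets belonged to 6 genes: Igf1, Igf1r, Igf2r, Igfbp3, Igfbp6 and Igfbp7. The median log2 fold change of the tested members was 0.39 for the A chip and 0.51 for the B chip, beside 0.02 and 0.04 over all tested probe sets.

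A probe set was tested when its mean log2 value over the 4 arrays of its chip was above the 40th percentile, which lies at a signal of about 54.0 (A chip) and 167 (B chip). Of the 18 member probe sets 16 passed, and these 16 also passed on the null arrays alone and on the wild-type arrays alone. The other 2, on the A chip, read near the floor: Igf2 98622_at had 6.9 and 8.4 in null skin and 3.5 and 2.6 in wild-type skin, and Igfbp4 101570_at had 12.2 and 21.2 in null skin and 7.5 and 5.7 in wild-type skin. On the A chip both null arrays lay above both wild-type arrays for 7 of 12 tested members, beside 37.8% of all tested probe sets. On the B chip they did so for 2 of 4, beside 36.0% of all. These were the 9 called probe sets. Both null arrays lay below both wild-type arrays for 0 members, against 36.2% and 31.7% of all. The groups overlapped for the 7 that did not pass. An exact permutation test of 2 arrays against 2 cannot give a two-sided p below 0.333, so the calls rest on limma, which pools the spread over all probe sets.

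**Figure D1:**
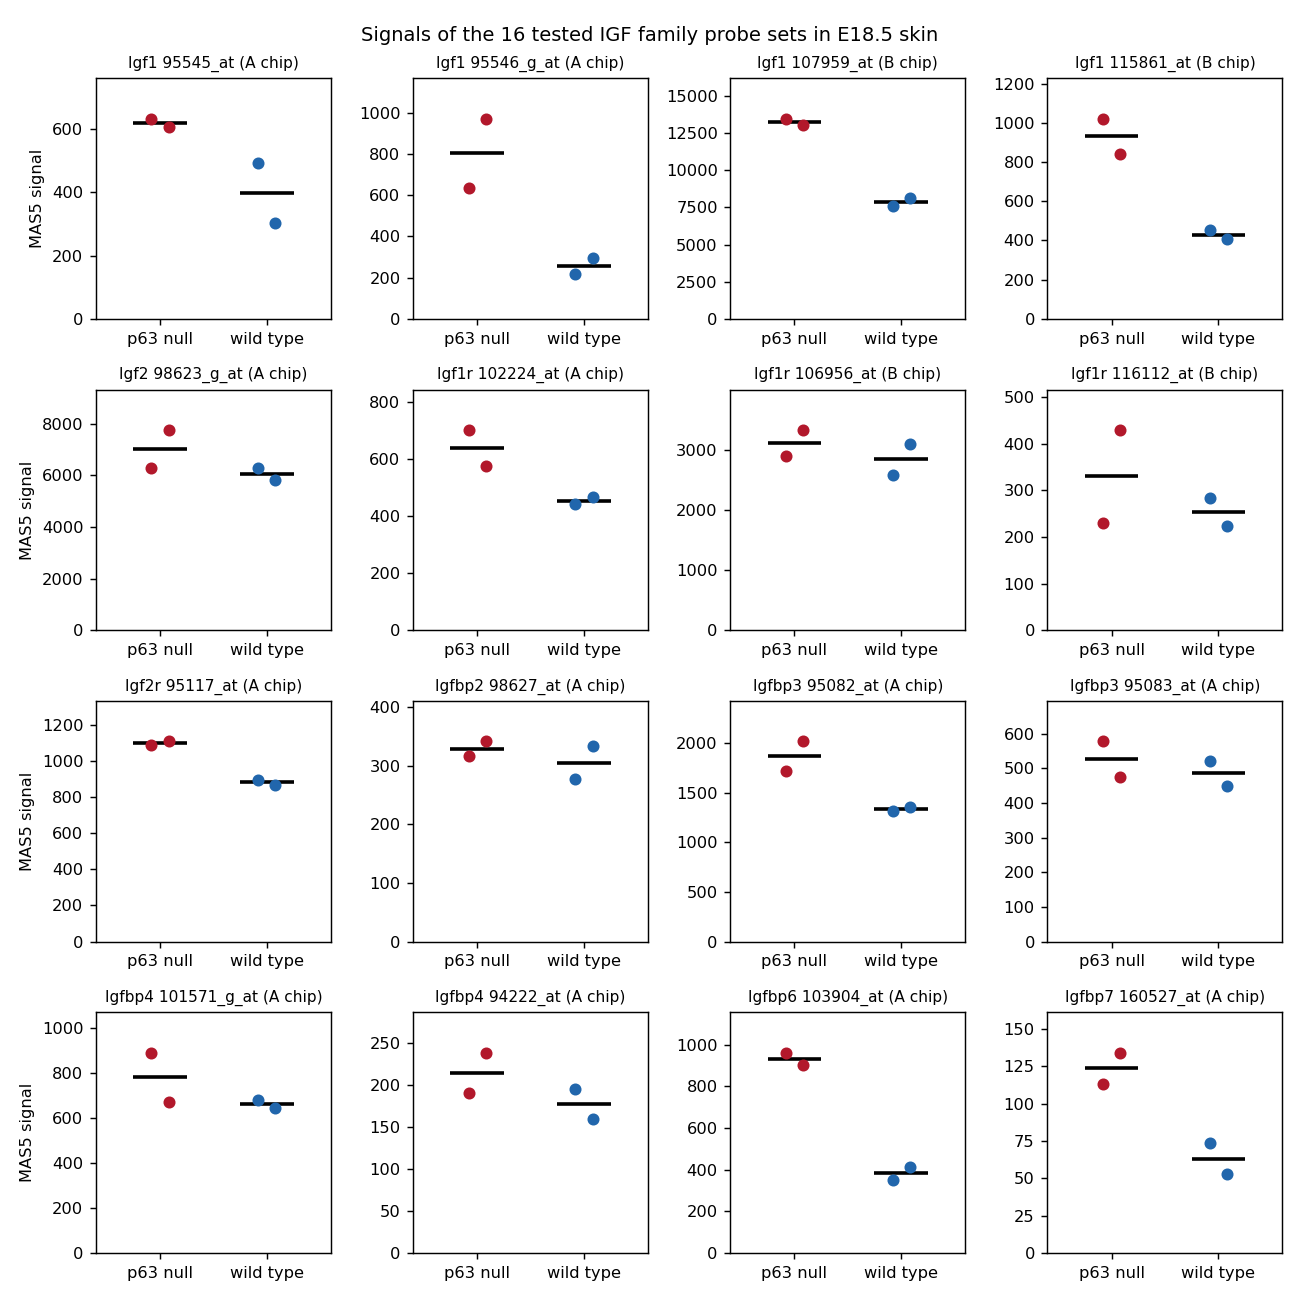
MAS5 signal (linear axis from 0, arbitrary units) of the 16 tested IGF family probe sets, 1 panel each. Points are single arrays (2 p63 null, left; 2 wild type, right) and bars are means; the 4 Igf1 panels and the Igfbp6 panel show null points above wild-type points, and the Igf2, Igfbp2 and Igfbp4 panels show points that overlap.

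Igf1, a ligand that drives growth before and after birth, rose on all 4 of its probe sets, 2 on each chip. The B chip's 107959_at had signals of 13473.3 and 13034.7 in null skin and 7617.1 and 8147.6 in wild-type skin. Its null mean was 13254 ± 310 against 7882 ± 375 in wild type (SD, n = 2 each), a ratio of 1.68, or 0.75 as log2 fold change (SE 0.11, adjusted p = 0.00299 by limma). Its mean log2 value stood at the percentile 99.8 of the chip, and both null arrays were above both wild-type arrays.

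The other B chip probe set of Igf1, 115861_at, had 1022.5 and 842.2 in null skin and 452.0 and 408.3 in wild-type skin. Its log2 fold change was 1.02 (SE 0.17, adjusted p = 0.00452, limma), and the groups did not overlap. The A chip held 2 probe sets made from the same Igf1 sequence record. The first, 95546_g_at, had 636.8 and 971.4 in null skin and 218.4 and 295.2 in wild-type skin, with 1.58 as log2 fold change (SE 0.21, adjusted p = 3.47e-04, limma), the largest among the members. The second, 95545_at, had 632.7 and 606.4 in null skin and 492.3 and 302.0 in wild-type skin, which differed by 0.66 on the log2 scale (SE 0.20, adjusted p = 0.0238, limma).

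The wild-type arrays disagreed more than the null arrays for 95545_at, and its call depended on them: without wild-type replicate 2 its log2 fold change was 0.32 (adjusted p = 0.185). Its call was also lost with no filter on low signals (0.0741) and without the variance trend (0.0543). The other 3 Igf1 probe sets passed under all 12 alternative settings tried, with log2 fold changes of 1.28 to 1.88 for 95546_g_at, 0.70 to 0.98 for 107959_at and 0.88 to 1.15 for 115861_at.

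Igf2, the main fetal ligand and an imprinted gene expressed from the paternal copy, did not pass. Its tested probe set 98623_g_at stood at the percentile 99.6 of the A chip, with 6270.2 and 7760.0 in null skin and 6280.1 and 5804.1 in wild-type skin. Null replicate 1 read as wild-type replicate 1 did, while null replicate 2 stood above the other 3 arrays. The log2 fold change was 0.21, with a 95% interval of -0.10 to 0.51 (adjusted p = 0.242, limma). Without null replicate 1 it was 0.36 and passed (adjusted p = 0.00293). A difference between the changes of Igf1 and Igf2 was not tested.

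Igf1r, the signalling receptor, rose on its single A chip probe set, 102224_at, with 702.2 and 574.9 in null skin and 442.8 and 466.1 in wild-type skin. The log2 fold change was 0.47 (SE 0.14, adjusted p = 0.0202, limma). The call was lost on leaving out null replicate 1 (0.0843), wild-type replicate 1 (0.0815) or wild-type replicate 2 (0.0577).

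The B chip gave Igf1r 2 more probe sets, and neither passed. The brighter one, 106956_at, had 2893.5 and 3332.4 in null skin and 2582.7 and 3102.8 in wild-type skin, a log2 fold change of 0.13 with an interval of -0.20 to 0.46 (adjusted p = 0.516, limma). The dimmer one, 116112_at, had 229.6 and 429.6 in null skin and 284.5 and 223.2 in wild-type skin, a log2 fold change of 0.27 with an interval of -0.41 to 0.95 (adjusted p = 0.509, limma), and -0.11 without null replicate 2. The 3 intervals of Igf1r overlap, with the A chip's running from 0.17 to 0.78.

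Igf2r, the scavenger receptor that also sorts lysosomal enzymes, had 1088.3 and 1109.6 in null skin and 896.5 and 868.3 in wild-type skin. The arrays of a genotype were close to each other and the groups did not overlap. The log2 fold change was 0.31 (SE 0.11, adjusted p = 0.0454, limma), and this call was the least stable of the members. It was lost under 7 of 12 alternatives: under median centring (0.0840), without the filter (0.0574), with a constant prior variance (0.103), with replicate numbers as a block (0.0563), and without null replicate 2 (0.0720), wild-type replicate 1 (0.145) or wild-type replicate 2 (0.230).

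Among the binding proteins the largest rise was that of Igfbp6, which prefers IGF2 over IGF1. It had 962.9 and 903.2 in null skin and 352.7 and 410.8 in wild-type skin, or 933 ± 42.2 against 382 ± 41.1 (SD, n = 2 each). The ratio of the means was 2.44 and the log2 fold change 1.26 (SE 0.13, adjusted p = 7.64e-05, limma). It passed under all 12 alternatives, with log2 fold changes of 1.16 to 1.37. No array of either genotype came near the other genotype's range.

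Igfbp7, a secreted relative that binds IGFs weakly and is abundant in vessel walls, had 113.5 and 134.3 in null skin and 73.5 and 52.7 in wild-type skin. Its log2 fold change was 0.86 (SE 0.22, adjusted p = 0.0114, limma). Its mean log2 value stood at the percentile 49.4 of the chip, and the call was lost without wild-type replicate 2 (log2 fold change 0.66, adjusted p = 0.0767). Beside it, the endothelial marker list was higher in null skin, with 8 of 10 tested probe sets called higher on the A chip, where 22.1% of all were. Its summed signal was 5057 and 5553 in null against 2897 and 2957 in wild type. The part of vessel RNA in the Igfbp7 value was not tested.

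Igfbp3, the main carrier of IGF in serum and a proposed target of p63, had 2 probe sets that differed in their calls. The brighter one, 95082_at, had 1716.2 and 2017.7 in null skin and 1319.6 and 1351.3 in wild-type skin, which differed by 0.47 on the log2 scale (SE 0.12, adjusted p = 0.0115, limma). That call was lost on leaving out wild-type replicate 1 (0.0725) or wild-type replicate 2 (0.0674). The other, 95083_at, had 578.3 and 474.6 in null skin and 521.7 and 450.0 in wild-type skin, and the groups overlapped (log2 fold change 0.11, interval -0.22 to 0.44, adjusted p = 0.564, limma).

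Igfbp2 and Igfbp4 did not pass. Igfbp2, a binding protein abundant in fetal tissue, had 316.1 and 342.2 in null skin and 277.7 and 333.5 in wild-type skin (log2 fold change 0.11, interval -0.22 to 0.44, adjusted p = 0.580, limma). Igfbp4, an inhibitory binding protein that the protease PAPP-A cleaves, had 892.6 and 671.6 in null skin and 681.7 and 647.7 in wild-type skin on 101571_g_at. Its log2 fold change was 0.22 with an interval of -0.12 to 0.55 (adjusted p = 0.263, limma), and without null replicate 2 it passed at 0.42 (adjusted p = 0.0225). Its other tested probe set, 94222_at, had 190.8 and 238.6 in null skin and 194.9 and 158.9 in wild-type skin (log2 fold change 0.26, interval -0.14 to 0.66, adjusted p = 0.262, limma).

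**Figure D2:**
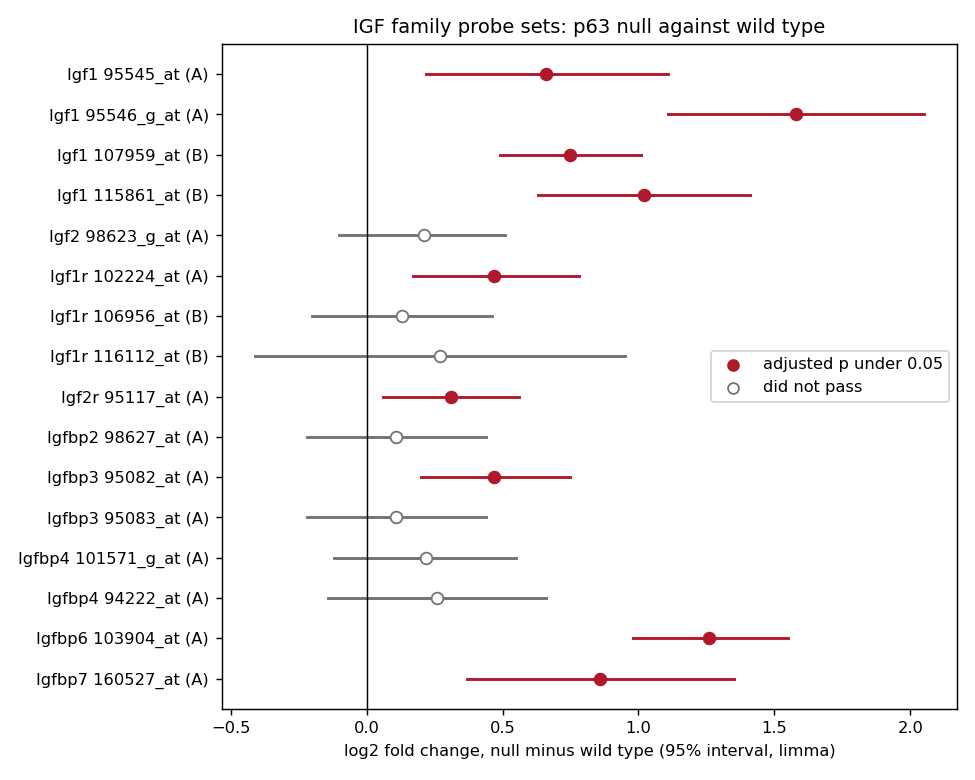
Log2 fold change, null minus wild type, of the 16 tested IGF family probe sets, with 95% intervals from limma (chip in brackets). Filled red points passed an adjusted p under 0.05 and open grey points did not; the points run from 0.11 to 1.58, all to the right of 0, and the 7 open ones have intervals that include 0.

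The calls held unevenly when single arrays were left out. On the A chip the number of member probe sets called higher was 7 on leaving out either null array, though not the same 7 as reported, 4 on leaving out wild-type replicate 1 and 2 on leaving out wild-type replicate 2. Without null replicate 1 the Igf1r call was lost and Igf2 98623_g_at passed, and without null replicate 2 the Igf2r call was lost and Igfbp4 101571_g_at passed. The 2 probe sets left without wild-type replicate 2 were Igf1 95546_g_at and Igfbp6. Both Igf1 probe sets of the B chip passed whichever array was left out. No member was called lower under any of the 12 alternatives.

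**Figure D3:**
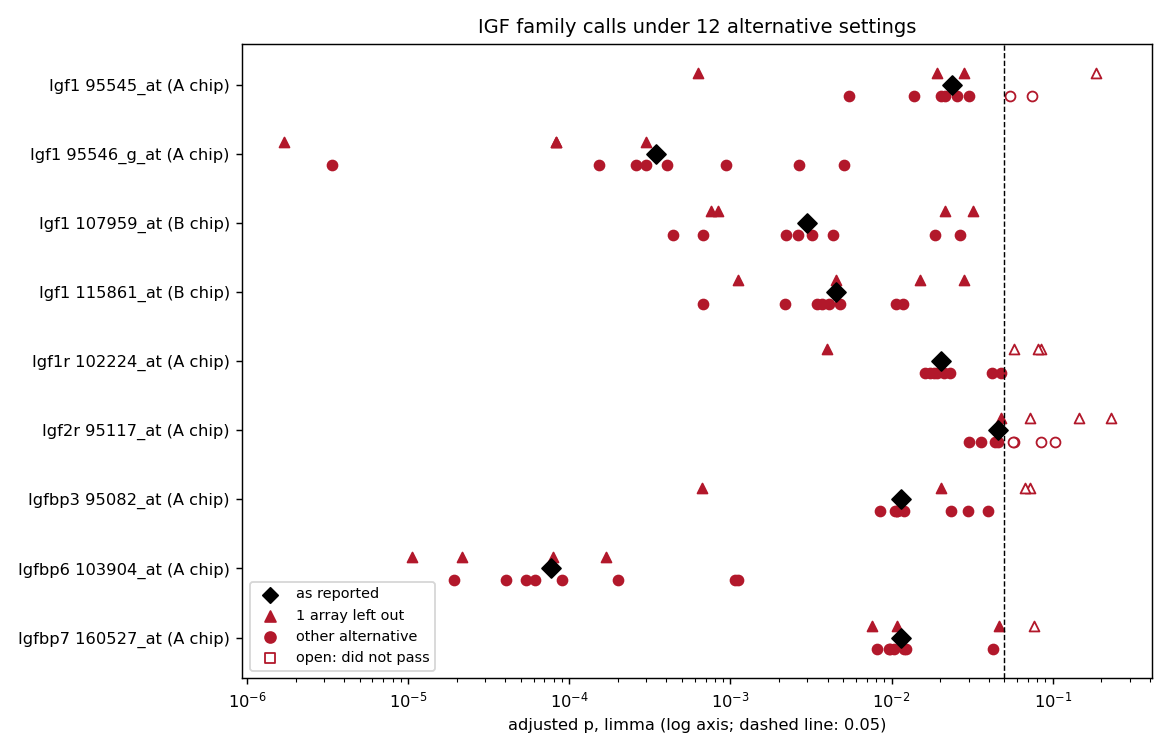
Adjusted p (limma, log axis) of the 9 member probe sets called higher in p63 null skin, under the settings of the report (black diamonds), with 1 array left out (triangles) and under the other alternatives (circles). Open symbols lie to the right of the dashed line at 0.05; they occur for Igf1 95545_at, Igf1r, Igf2r, Igfbp3 and Igfbp7.

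The sequences upstream of Igf1, Igfbp6 and Igfbp7 are shown because these genes had the largest log2 fold changes of the ligands and the binding proteins. Each line gives the 250 bases before a RefSeq transcript start, read 5′ to 3′ on the gene's strand, with CATG in capitals, the core that half-sites of the p53 family often carry. They are from build GRCm38.p6: chr10:87860861-87861110 on the plus strand for Igf1, chr15:102143936-102144185 on the plus strand for Igfbp6 and chr5:77408046-77408295 on the minus strand for Igfbp7. The starts of Igfbp6 and Igfbp7 are the 5′ ends of their genes, while that of Igf1 lies within its gene's annotated span.
Igf1: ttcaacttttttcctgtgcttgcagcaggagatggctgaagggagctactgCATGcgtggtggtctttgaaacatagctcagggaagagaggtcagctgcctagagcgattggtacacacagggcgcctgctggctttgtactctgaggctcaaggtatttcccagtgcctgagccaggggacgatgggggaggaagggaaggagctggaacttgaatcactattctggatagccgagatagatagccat
Igfbp6: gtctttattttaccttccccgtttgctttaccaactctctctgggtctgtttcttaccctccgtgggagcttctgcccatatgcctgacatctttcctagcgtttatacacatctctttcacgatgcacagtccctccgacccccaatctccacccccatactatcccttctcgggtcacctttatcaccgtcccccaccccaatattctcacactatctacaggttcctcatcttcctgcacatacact
Igfbp7: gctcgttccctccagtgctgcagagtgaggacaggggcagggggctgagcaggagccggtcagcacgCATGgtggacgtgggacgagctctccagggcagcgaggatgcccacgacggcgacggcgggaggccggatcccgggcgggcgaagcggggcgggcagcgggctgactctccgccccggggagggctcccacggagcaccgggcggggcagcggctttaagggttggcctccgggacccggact
CATG, which is its own reverse complement, occurred 1 time upstream of Igf1, 0 times upstream of Igfbp6 and 1 time upstream of Igfbp7. All 10 genes had a window in the RefSeq table, 14 windows together, and CATG was in 5 of them, as in 53.9% of all 32851 windows of this length. TATAAA on either strand was in 2 of the 14, those of Igfbp4 and Igfbp6, and in 12.4% of all. GGGCGG on either strand was in 6 of the 14, with 4 matches upstream of Igfbp7, and in 32.7% of all. Matches of different motifs may share bases, and a match is of letters only.

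In the list of the insulin receptor family and the growth hormone axis, 4 of 7 tested genes of the A chip had a probe set called higher. By probe sets, 6 of 10 tested probe sets on the A chip were called higher and 0 lower (median log2 fold change 0.61), beside 22.1% and 22.2% of all. Ghr, the growth hormone receptor, whose signal induces Igf1 in liver and other tissues, had 413.1 and 431.8 in null skin and 178.3 and 190.4 in wild-type skin on 99108_s_at (log2 fold change 1.14, adjusted p = 2.15e-04, limma). Its other probe set, 99107_at, differed by 0.42 on the log2 scale and did not pass (adjusted p = 0.0782). Cish (0.20, adjusted p = 0.351), Socs2 (0.14, adjusted p = 0.486) and Jak2 (-0.14, adjusted p = 0.463), named after their values were seen, did not pass on the A chip.

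Stat5a, a transcription factor of the growth hormone route, rose by 0.79 on 100422_i_at (adjusted p = 0.00146, limma) and by 0.51 on 100423_f_at (0.0253). Socs1 and Socs3, which damp cytokine receptors, rose by 1.07 (adjusted p = 0.00325) and, on 92232_at, 1.06 (adjusted p = 0.00272). In wild-type skin Socs3 read 52.6 and 46.1, under the level for testing, and it was tested through its null arrays. A second probe set of Socs3, 162206_f_at, rose by 0.70 (adjusted p = 0.0131). On the B chip Socs3 111736_at was below the level for testing, with 158.3 and 83.7 in null skin and 184.1 and 152 in wild-type skin. The calls of 100423_f_at and 162206_f_at were lost on leaving out null replicate 1 (0.0676 and 0.0523) or wild-type replicate 2 (0.170 and 0.0687).

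From the B chip 1 of 5 tested probe sets of this list was called higher and 0 lower, beside 14.5% and 14.9% of all. The called one was that of the insulin receptor Insr, named after its value was seen. Its probe set 106043_g_at had 2439.8 and 2367.7 in null skin and 1415.2 and 1653.6 in wild-type skin (log2 fold change 0.63, adjusted p = 0.0117, limma; 0.0984 without wild-type replicate 1). The other 2 tested probe sets of Insr had log2 fold changes of 0.38 (adjusted p = 0.0851) and 0.30 (adjusted p = 0.201). Socs2 (0.53, adjusted p = 0.114) and Stat5b (0.35, adjusted p = 0.264), also named after their values were seen, did not pass on the B chip.

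Among proteins that govern ligand availability, 1 of 5 tested probe sets on the A chip was called higher and 0 lower, beside 22.1% and 22.2% of all. It belonged to Igfals, the acid-labile subunit that joins IGF and Igfbp3 in the serum complex, chiefly a liver product. Igfals had 196.9 and 144.4 in null skin and 22.0 and 32.9 in wild-type skin (log2 fold change 2.18, SE 0.24, adjusted p = 1.27e-04, limma). Its wild-type signals were under the level for testing, so it was tested through its null arrays. Its second probe set read 11.9 or less on every array. Igfbp1 was also near the floor, at 21.0 or less on every array, and was not tested. The 1 tested probe set of the B chip, for Igf2bp3, which binds Igf2 mRNA, did not pass (log2 fold change 0.05, adjusted p = 0.841).

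The receptor adapters and their inhibitors went both ways. On the A chip 1 of 9 tested probe sets was called higher and 1 lower, with a median of 0.16, beside 22.1% and 22.2% of all. On the B chip 0 of 6 were higher and 1 lower, with a median of -0.20, beside 14.5% and 14.9% of all. Grb2, the adapter that couples receptors to Ras, rose by 0.65 (adjusted p = 0.00485, limma). Gab1, a docking protein, had 323.1 and 252.8 in null skin and 516.3 and 493.1 in wild-type skin on 160714_at (log2 fold change -0.79, adjusted p = 0.00259, limma). A second Gab1 probe set, 93902_at, was tested only through its wild-type arrays and did not pass (-0.49, adjusted p = 0.0983, limma). Irs1, the docking protein next to IGF1R, had 3105.6 and 3274.7 in null skin and 4181.6 and 4242.3 in wild-type skin on the B chip, or -0.40 as log2 fold change (adjusted p = 0.0361, limma). The Irs1 call was lost under 5 alternatives, among them leaving out wild-type replicate 1 (0.172) or wild-type replicate 2 (0.209).

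Of the PI3K and Akt kinases 3 of 7 tested A chip probe sets were called higher and 0 lower, beside 22.1% and 22.2% of all. On the B chip 1 of 4 was higher and 1 lower, beside 14.5% and 14.9% of all. Akt1 and Akt2, kinases downstream of PI3K, rose by 0.51 (adjusted p = 0.00964, limma) and 0.58 (adjusted p = 0.0171). Without wild-type replicate 2 their adjusted p was 0.0914 and 0.121, and that of Akt2 was 0.0575 without null replicate 1. Pik3r1, the regulatory subunit p85-alpha, rose by 0.65 on the A chip (adjusted p = 0.0418) and by 0.84 on 163548_at of the B chip (adjusted p = 0.0405). Its brightest probe set, 113019_at, did not pass (0.31, adjusted p = 0.0876). Pik3cb, a catalytic subunit, differed by -0.64 (adjusted p = 0.0359, limma). Leaving out single arrays ended the A chip call of Pik3r1 (null replicate 1, 0.234; wild-type replicate 1, 0.159; wild-type replicate 2, 0.0536) and its B chip call (null replicate 1, 0.0873; wild-type replicate 2, 0.189). That of Pik3cb was lost likewise (null replicate 1, 0.0740; wild-type replicate 1, 0.170; wild-type replicate 2, 0.126).

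Among Akt targets and mTOR components 4 of 11 tested A chip probe sets were called higher and 0 lower, beside 22.1% and 22.2% of all. On the B chip 2 of 9 were higher and 1 lower, beside 14.5% and 14.9% of all. Eif4ebp1, a repressor of cap-dependent translation, had 657.5 and 596.7 in null skin and 369.2 and 374.6 in wild-type skin (log2 fold change 0.73, adjusted p = 0.00148, limma). Foxo1 and Foxo4, transcription factors that Akt keeps out of the nucleus, rose by 0.92 (162780_at, adjusted p = 0.0416) and 0.63 (adjusted p = 0.0246) on the B chip, a second tested Foxo1 probe set, 106989_at, did not pass (0.51, adjusted p = 0.0971), and Foxo4 rose by 0.55 on the A chip (adjusted p = 0.00943). Tsc2, an inhibitor of mTOR, rose by 0.60 on 97951_s_at (adjusted p = 0.0109), while 97953_g_at gave 0.01 (adjusted p = 0.953). Bad and Rictor, named after their values were seen, had log2 fold changes of 0.59 (adjusted p = 0.0370) and -0.52 (adjusted p = 0.0347), and a second probe set of Bad gave -0.02 (adjusted p = 0.943).

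Without wild-type replicate 2 the adjusted p of Foxo1, Foxo4 on the B chip, Bad and Rictor was 0.202, 0.172, 0.118 and 0.186, and without wild-type replicate 1 that of Foxo4, Tsc2, Bad and Rictor was 0.0517, 0.0814, 0.0908 and 0.165. Without null replicate 2 that of Foxo1 was 0.0514 and that of Bad 0.205. The Ras and MAP kinase arm had 0 called of 3 tested from the B chip, beside 14.5% higher and 14.9% lower of all. On the A chip it had 1 higher and 1 lower of 4 tested, beside 22.1% and 22.2% of all. These were Map2k2, a MAP kinase kinase (log2 fold change 0.49, adjusted p = 0.0317, limma), and Nras (-0.38 on 94362_at, adjusted p = 0.0273; a second probe set gave -0.07, adjusted p = 0.835), and each lost its call on leaving out wild-type replicate 1 (0.106 and 0.162) or wild-type replicate 2 (0.116 and 0.0997). That of Map2k2 was also lost without null replicate 2 (0.103) and that of Nras without null replicate 1 (0.0530).

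**Figure D4:**
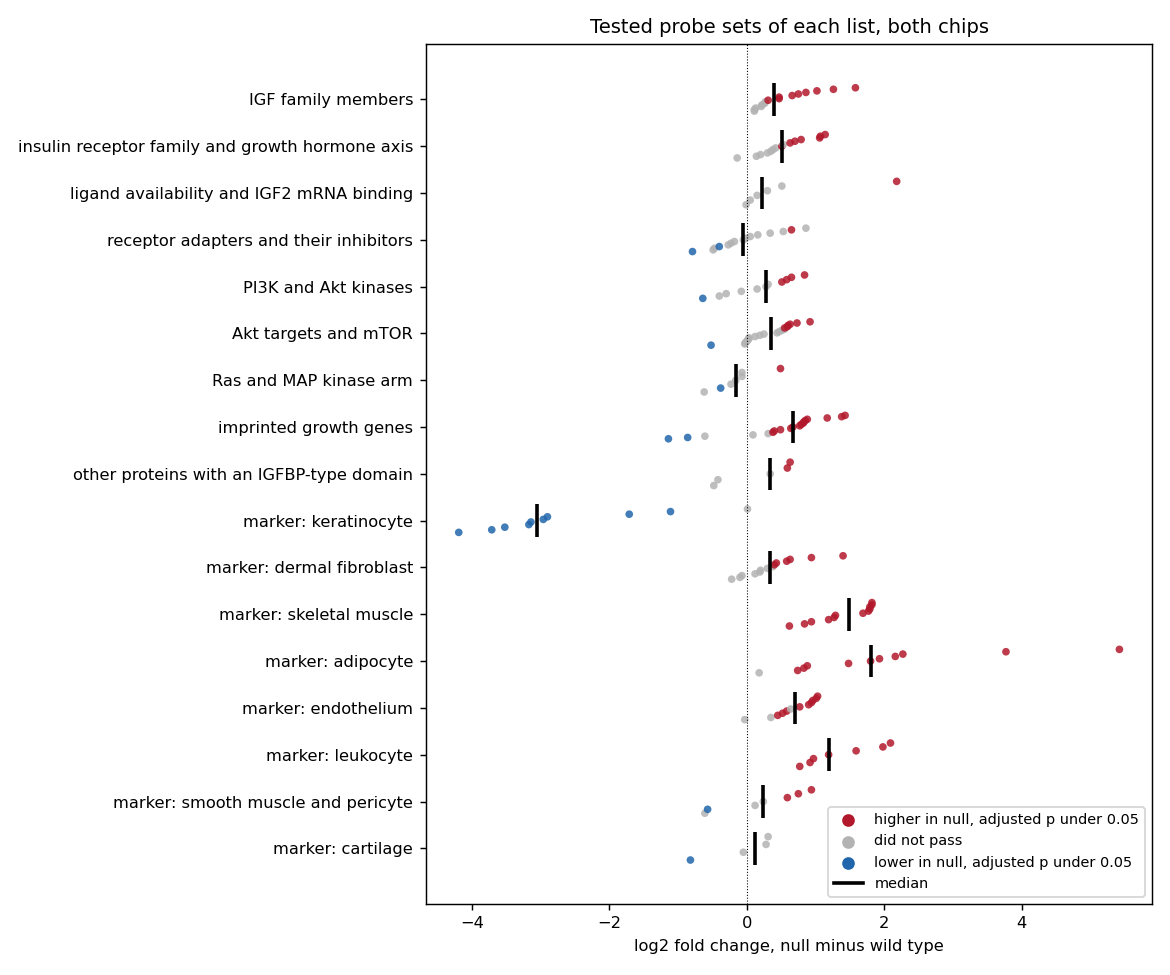
Log2 fold change, null minus wild type, of every tested probe set of the IGF family, of 8 lists of pathway genes and of 8 lists of cell type markers, both chips together. Red points were called higher and blue points lower in null skin (adjusted p under 0.05), grey points did not pass, and black bars are medians. The family lies to the right of 0, and the keratinocyte median to the left. Medians of the muscle, adipocyte, leukocyte, endothelial, imprinted and growth hormone axis lists lie further right than the family's.

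Imprinted genes, expressed from 1 parental copy and known for control of fetal growth, formed the list with the most calls. Of the A chip's 15 tested probe sets 12 were called higher and 1 lower (median log2 fold change 0.67), beside 22.1% and 22.2% of all. On the B chip 2 of 4 were called higher and 1 lower (median 0.57), beside 14.5% and 14.9% of all. Meg3, a noncoding RNA, had 1987.5 and 2841.5 in null skin and 902.3 and 841.8 in wild-type skin on 160172_at (log2 fold change 1.43, adjusted p = 1.47e-04, limma). Its other A chip probe set, 160173_at, rose by 0.77 (adjusted p = 7.27e-04, limma). The Meg3 probe sets of the B chip were below the level for testing, with log2 fold changes from -0.76 (109661_at) to 0.49 (164148_at). Dlk1, the neighbour of Meg3 and an inhibitor of fat cell differentiation, had 890.2 and 738.1 in null skin and 318.5 and 339.6 in wild-type skin on the B chip (1.17, adjusted p = 0.00283), and rose by 0.79 on the A chip (adjusted p = 0.00391). Without wild-type replicate 2 the A chip value of Dlk1 did not pass (0.0770).

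Peg3, a zinc finger protein expressed from the paternal copy, rose by 1.38 on 101451_at (adjusted p = 2.65e-04, limma), and its other 2 probe sets by 0.64 and 0.49. The last of these, 96765_at, was lost on leaving out wild-type replicate 1 (0.125) or wild-type replicate 2 (0.0782). Slc38a4, an amino acid transporter, was the gene called lower on both chips, with 345.6 and 321.5 in null skin and 737.6 and 760.8 in wild-type skin on the A chip (log2 fold change -1.14, adjusted p = 1.09e-04, limma) and a log2 fold change of -0.86 on the B chip (adjusted p = 0.0130, and 0.0675 without wild-type replicate 1). Gnas, named after its value was seen, rose by 0.82 on its B chip probe set (adjusted p = 0.0194, limma). That call was lost without wild-type replicate 2 (log2 fold change 0.63). Its brighter A chip probe set, 93271_s_at, rose by 0.40 (adjusted p = 0.0498, limma), a call lost under 9 of 12 alternatives. Igf2 and Igf2r, the imprinted members of the family, had the log2 fold changes of 0.21 and 0.31 given above.

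Other proteins with an IGFBP-type domain had 0 tested probe sets on the B chip. On the A chip 2 of 5 tested were called higher and 0 lower, beside 22.1% and 22.2% of all. These were Ccn3 and Ccn1, matricellular proteins, which rose by 0.63 (adjusted p = 0.00612, limma) and 0.59 (adjusted p = 0.0450). The call of Ccn1 was lost whichever array was left out, with adjusted p of 0.0503 to 0.229. Ccn4 differed by -0.42 on the log2 scale and did not pass (adjusted p = 0.0783).

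Markers of other cell types differed by genotype beside these values, and in whole skin fewer cells of a type and less RNA per cell cannot be told apart. For the counts of each marker list, 22.1% of all tested A chip probe sets were called higher and 22.2% lower. On the B chip the shares were 14.5% and 14.9%. On the A chip 8 of 9 tested keratinocyte marker probe sets were lower and 0 higher in null skin (median log2 fold change -2.96), and the summed signal of all probe sets of the list, as for each list here, was 4100 and 4697 in null against 28748 and 27708 in wild type. Krt1 and Krt10, keratins of the upper epidermis, had log2 fold changes of -3.14 and -1.71. The dermal fibroblast list was higher in 6 of 14 and lower in 0, with a median of 0.34 and sums of 41220 and 51507 in null against 38037 and 35842 in wild type. Of its brightest genes, Col1a1 had log2 fold changes of 0.38 on 94305_at (adjusted p = 0.0598, limma) and 1.40 on 103709_at (adjusted p = 0.0336). The null arrays of 103709_at disagreed, at 985.2 and 3726.8 against 713.6 and 729 in wild type, and its interval was 0.37 to 2.42. Col1a2 had 0.43 (adjusted p = 0.0227) and 0.63 (adjusted p = 0.00501).

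Skeletal muscle markers of the A chip were higher in 12 of 12 tested probe sets, 1 of them (Actn2) tested only through its null arrays, with a median of 1.49 and sums of 22973 and 25569 in null against 10492 and 10679 in wild type, and Acta1 and Tnnt1 had log2 fold changes of 0.62 and 1.77. Adipocyte markers were higher in 10 of 11 and lower in 0, and 3 of the 10 (both of Ucp1 and 1 of Gpd1) were tested only through their null arrays, with a median of 1.80 and sums of 19162 and 21272 in null against 7677 and 7242 in wild type, and Adipoq and Gpd1 rose by 0.74 and 2.16. Leukocyte markers were higher in 7 of 7, 1 of them (Ptprc) tested only through its null arrays, with a median of 1.19 and sums of 5323 and 5833 in null against 1979 and 1848 in wild type, and Ctss and C1qa rose by 1.98 and 2.09. In the endothelial list, with a median of 0.77, Eng and Cdh5 rose by 0.96 and 0.90, and 1 of 2 tested B chip probe sets was higher and 0 lower.

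Smooth muscle and pericyte markers of the A chip had 2 higher and 1 lower of 4, with a median of 0.35. Their sums were 2369 and 2490 in null against 1774 and 1748 in wild type. Acta2 and Tagln rose by 0.75 and 0.59, and the lower one was Rgs5 103294_at (log2 fold change -0.57, adjusted p = 0.0279, limma). Of 3 tested B chip probe sets of that list 1 was higher, that of Cspg4 (log2 fold change 0.94, adjusted p = 0.00464, limma), and 0 were lower. Rgs5 113183_at of that chip did not pass (-0.61, adjusted p = 0.0644, limma). Cartilage markers had 0 calls of 2 tested A chip probe sets, Col9a1 (log2 fold change -0.05) and Col9a2 (0.28), with sums of 340 and 370 in null against 394 and 300 in wild type. Of 2 tested B chip ones, both of Sox9, 163458_at was lower (-0.82, adjusted p = 0.00958, limma) and 163058_at did not pass (0.31, adjusted p = 0.331). Cspg4, Rgs5 and Sox9 were named after their values were seen, as were Actn2, Ucp1 and Ptprc. No marker probe set read 0 on any array. The part of these lists in the IGF values was not tested, and each array was scaled to the same mean signal, so a signal is relative to the rest of its array.

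The probe sets most like the leading Igf1 probe sets over the 4 arrays of a chip were found by the Euclidean distance of their centred log2 values. Those nearest to 95546_g_at on the A chip, among 6756 with 1 symbol, belonged to Smtn (distance 0.24), Bcas3 (0.24) and Fasn (0.25), with log2 fold changes of 1.46, 1.68 and 1.71. Those nearest to 115861_at on the B chip, among 6813, belonged to Slc16a3 (0.07), Pgap6 (0.08) and Pde3b (0.09), with log2 fold changes of 1.09, 1.03 and 1.06. The likeness rests on 4 arrays in 2 genotypes and is a description only.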

How the data were processed

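Per the labels, total RNA came from whole skin by TriZol and an RNeasy clean-up step, with biotin as label. The deposited values are linear signal intensities, 1 per probe set and array, made by the authors with MAS5 per the submitters' processing notes; no source used here gives its version, detection calls or a genome build. The 2% trimmed mean of the deposited intensities was 250.1 to 250.2 (A chip) and 500.1 (B chip).

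Arrays of a chip were brought to 1 common 2% trimmed mean, an offset at the 20th percentile of the chip (12.9 on A, 54.3 on B) was added, and log2 was taken, which understates changes of low signals. Without the 66 control probe sets per chip, 7453 (A) and 7446 (B) probe sets above the 40th percentile were tested with limma 3.58.1 in R 4.3.3 (lmFit, eBayes with trend), two-sided, with Benjamini-Hochberg adjustment over each chip. Every adjusted p is from this fit, apart from those given for an alternative, which are from the same steps with the change named. The design text names 2 embryos of each genotype; p-values measure the spread between these arrays, and their number limits the precision. The fit was also run on simulated arrays with known changes, whose spread depended on signal level alone. That run does not bear on how far the calls rest on single arrays.

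Names came from the platform annotation, which can be old: 10855 probe sets of the A chip had 1 symbol, 396 several and 1237 none, and 10603, 178 and 1696 of the B chip. Of those with 1 symbol 10839 and 10572 were matched to the RefSeq gene table of GRCm38.p6. The members, gene lists and tests were chosen with earlier results of these data known. Named are all members, Trp63, per pathway list up to 4 called genes with the largest change, per marker list the 2 brightest genes of the A chip, and the 3 nearest probe sets of the leading member. Alternatives changed the offset, filter, scaling, variance trend and replicate block, or left out 1 array. The deviations of same-numbered null and wild-type arrays correlated at 0.04 (A) and -0.05 (B) over the tested probe sets, and no label ties the numbers across genotypes, so the main fit is unpaired.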

Additional observations from a re-analysis of the deposited data

How the results depend on the processing

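Of the 9 called IGF family probe sets 4 passed under all 12 alternatives: Igf1 95546_g_at, 107959_at and 115861_at, and Igfbp6. The other 5 lost the call under at least 1, with the values given above. The number of member probe sets called higher on the A chip, 7 as reported, lay between 2 and 7 when 1 array was left out, and was 5 with no filter, 5 without the variance trend, 6 with the filter at the 60th percentile and 6 with median centring. On the B chip it was 2 under each alternative. Among members without a call, 3 turned negative when 1 array was left out: Igfbp3 95083_at (-0.03 without null replicate 1, up to 0.25), Igfbp2 (-0.02 without wild-type replicate 1, up to 0.23) and Igf1r 116112_at (-0.11 without null replicate 2, up to 0.66). Of 24 named pathway genes 8 kept the call of every called probe set under each alternative that tested it. Another 16 lost at least 1 call, and 0 reversed. A probe set below a filter had no test there. The 8 include Igfals, which was tested only through its null arrays and under 10 of the 12 alternatives.

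Over all tested probe sets, leaving out 1 array gave 1074 to 1579 higher and 1051 to 1796 lower on the A chip (1646 and 1653 as reported), and 577 to 1244 higher and 542 to 1355 lower on the B chip (1083 and 1106 as reported). The lowest counts were those without wild-type replicate 2; without wild-type replicate 1 the B chip had 603 higher and 572 lower. The cause was not tested. With the replicate number as a block, 6 (A chip) and 2 (B chip) member probe sets were called higher, as were 1674 and 1229 of all tested probe sets. The block ended the member call of Igf2r (adjusted p = 0.0563). Signal limited 2 member probe sets, 1 of Igf2 and 1 of Igfbp4, which were too low to test.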
